A study of Drosophila melanogaster with 2 samples.

Results

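The genes of the Brahma remodelling complex and 2 further genes of the Trithorax group were examined as places where peaks of the CG32264 protein fall in the Drosophila melanogaster genome. The members were named by function, though with earlier results of these data known. The genes are brm, mor, osa, Snr1, Bap60, Bap55, Bap111 and Bap170 of the complex, with trx and ash1. They are 10 of the 13945 protein-coding genes on the 6 chromosome arms analysed. A peak belonged to a gene when its summit, the highest point of the peak, lay in the gene or within 3 kb of either end, in the Ensembl annotation BDGP6 of build dm6.

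The chromatin came from whole wandering larvae of the third instar, from a transgenic line in which CG32264, which belongs to the family of phosphatase and actin regulators, carries GFP at its C terminus. The age is given as unknown, and males and females were pooled. An antibody to GFP pulled down the chromatin, and 2 biological replicates of this single line, numbered 1 and 3, form the only group. Whole larvae mix all tissues, so the lists do not tell in which cells a region was bound, and control chromatin is not analysed here.

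The Brahma complex is the fly form of the SWI/SNF family, which uses ATP to slide or remove nucleosomes and so opens chromatin. Its alternative forms share a core and differ in signature subunits: Osa marks the BAP form, and Bap170 with Polybromo marks the PBAP form. Several of its genes were found through genetic interaction with the Polycomb group, as Trithorax group genes that keep homeotic genes active, and trx and ash1, which encode histone methyltransferases, belong to the same group.

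The peaks came from 4 lists. The optimal list holds the 2546 peaks that the authors kept by the irreproducible discovery rate, a measure of how well peak ranks repeat between replicates. Both replicates together, replicate 1 alone and replicate 3 alone have 30000 peaks each. At the members each optimal peak had the same signal and rank in the list of both replicates together. For these peaks the optimal list and that list are therefore not separate observations. The strength of a peak is its deposited signal value, and rank 1 is the strongest. The scale of the signal belongs to each list, apart from the values shared in this way. The signal ran from 61.1 to 956 in the optimal list, from 9.20 to 664 in the list of replicate 1 and from 6.12 to 392 in that of replicate 3. A peak was called a top peak of a replicate when it ranked among the 2546 strongest of that replicate. Read depth is unknown from such lists, and the lack of a peak does not show that the protein was absent.

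Of the 10 members, 6 had an optimal summit: ash1, osa, trx, brm, mor and Bap55. Over all protein-coding genes, 3388 of 13945 had one, a share of 24.3%. The 6 members held 11 optimal summits, of which osa had 5, trx had 2, and ash1, brm, mor and Bap55 had 1 each. Their strength was very uneven. The peak next to ash1 was the second strongest of the optimal list, with a signal of 947, and the strongest osa peak ranked 12 with a signal of 681. The strongest peak of trx ranked 312, with a signal of 182, and the brm peak ranked 344, with a signal of 176. The mor peak ranked 1803 and the Bap55 peak ranked 2131, in the weaker part of the list. Snr1, Bap60, Bap111 and Bap170 had no optimal summit.

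**Figure D1:**
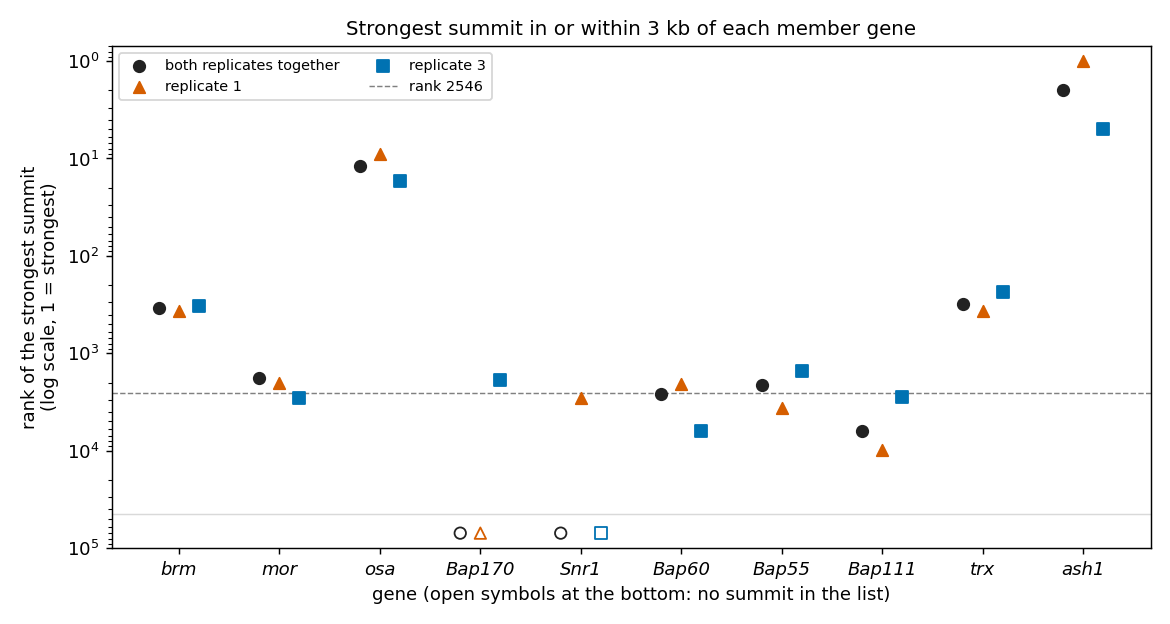
Signal rank of the strongest summit in or within 3 kb of each of the 10 genes (log axis, rank 1 at the top), in the list of both replicates together, replicate 1 and replicate 3. Within each of ash1, osa, trx and brm the symbols of the 3 lists lie close together, and all are above the dashed line at rank 2546. The symbols of mor, Bap55, Bap60, Bap111, Snr1 and Bap170 lie near or below the line or are absent.

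The DNA under the summits is shown for the strongest optimal peak of ash1, osa, trx and brm, the genes with top peaks in both replicates, and for a further peak each of osa and trx that holds the GAGA factor core. Each line gives the summit with 100 bp on either side, on the plus strand of Release 6 (dm6) as held by RefSeq, after the signal rank and the coordinates. Capitals mark every match, on either strand, to the searched motifs whose shares are given further on.
ash1, rank 2, chr3L:19590517-19590717: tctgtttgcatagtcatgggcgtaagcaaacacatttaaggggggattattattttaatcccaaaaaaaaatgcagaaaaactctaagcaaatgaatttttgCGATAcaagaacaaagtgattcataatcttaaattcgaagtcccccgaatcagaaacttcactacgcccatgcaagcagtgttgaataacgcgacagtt
osa, rank 12, chr3R:17704310-17704510: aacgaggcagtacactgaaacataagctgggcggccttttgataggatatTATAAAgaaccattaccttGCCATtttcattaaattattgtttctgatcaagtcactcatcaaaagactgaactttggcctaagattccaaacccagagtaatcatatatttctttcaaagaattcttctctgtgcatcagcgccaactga
trx, rank 312, chr3R:14283826-14284026: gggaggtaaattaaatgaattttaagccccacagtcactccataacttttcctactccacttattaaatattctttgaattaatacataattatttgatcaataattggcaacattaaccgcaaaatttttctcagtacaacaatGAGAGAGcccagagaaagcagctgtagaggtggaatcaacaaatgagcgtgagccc
brm, rank 344, chr3L:15982902-15983102: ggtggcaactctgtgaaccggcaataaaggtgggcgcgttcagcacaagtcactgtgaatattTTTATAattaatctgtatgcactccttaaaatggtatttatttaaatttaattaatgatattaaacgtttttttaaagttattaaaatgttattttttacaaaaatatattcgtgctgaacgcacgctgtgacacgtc
osa, rank 839, chr3R:17700564-17700764: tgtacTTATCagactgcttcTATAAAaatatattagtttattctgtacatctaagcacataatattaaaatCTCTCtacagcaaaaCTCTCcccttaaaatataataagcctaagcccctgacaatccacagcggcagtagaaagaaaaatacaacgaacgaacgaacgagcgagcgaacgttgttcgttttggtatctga
trx, rank 895, chr3R:14277940-14278140: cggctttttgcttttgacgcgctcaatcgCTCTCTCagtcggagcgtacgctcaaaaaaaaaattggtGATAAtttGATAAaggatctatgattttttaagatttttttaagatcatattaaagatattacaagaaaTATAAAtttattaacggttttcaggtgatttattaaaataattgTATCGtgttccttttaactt
The window next to ash1 held a single match, CGATA, close to its centre. The strongest osa window held TATAAA and GCCAT, and the brm window held TATAAA alone, read on the minus strand. The strongest trx window held GAGAG, as an unbroken run that counts as 2 overlapping matches.

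The catalytic and scaffold subunits come first. brm encodes the ATPase of the complex and lies on chr3L:15970082-15982869, on the minus strand. Its optimal peak at chr3L:15982911-15983072 had its summit 133 bp upstream of the start of brm and equally 133 bp from the start of the neighbour Arl1, in the gap between both genes. Its signal was 103 in replicate 1, at rank 371, and 74.6 in replicate 3, at rank 330. The peak was a narrow one of 162 bp, and its summit also lay within 3 kb of PolD1, CG17027 and CG17028. The position was therefore shared: the distance of the optimal summit does not set brm apart from Arl1. The summit of replicate 1 lay nearer to the start of Arl1, at 119 bp, than to that of brm, at 147 bp. In replicate 3 the nearest start was that of brm, at 108 bp.

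brm held another region that both replicates ranked among their top peaks and that the list of both together lacked. In replicate 1 the peak at chr3L:15977546-15977909 had a signal of 81.7, at rank 601. In replicate 3 the peak at chr3L:15977611-15977980 had a signal of 43.1, at rank 1115. Both summits lay in the long intron of brm, which is 7026 bp in most transcripts, and in an intron of the nested gene CG17029. The nearest summit in the list of both together was 1317 bp from the summit of replicate 1 and had a rank of 20373. Such gaps were rare: of 1559 top peaks of replicate 1 that overlapped a top peak of replicate 3, 3 (0.192%) had no peak in the list of both together, and the brm region had the best rank in replicate 1 among them. The reason was not tested. A further top peak at the 3' side of brm, rank 816 with a signal of 49.9, was listed in replicate 3 alone and lay 154 bp from the start of CG10516.

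mor encodes the scaffold subunit related to SWI3, on chr3R:15968134-15972913. Its optimal peak, at chr3R:15974182-15974557 and rank 1803 with a signal of 74.7, had its summit 1457 bp upstream of mor and inside an intron of the neighbour Hel89B, 1072 bp from that gene's start. It was a top peak in replicate 1, with a signal of 41.9 at rank 2038, and fell outside the top peaks of replicate 3, with a signal of 27.7 at rank 2841. Neither the optimal list nor the list of both together had a summit within the body of mor.

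The remaining shared subunits had weak or no peaks. Snr1, related to yeast SNF5 and at chr3R:5470926-5472754, had no summit in the list of both together or in replicate 3, and 3 in replicate 1, the strongest at rank 2884 with a signal of 33.9. The nearest optimal summit was 3779 bp from Snr1, at rank 816, and lay 46 bp from the start of RpL35A. Bap60, at chrX:13157445-13159508, had no optimal summit but missed the list narrowly: its peak ranked 2584 in the list of both together, with a signal of 60.7 against a lowest optimal signal of 61.1. The summit lay 93 bp upstream of Bap60. In replicate 1 the peak was a top peak at rank 2055, with its summit in the neighbour CG12096, 13 bp from the start of that gene and 109 bp from that of Bap60, and it ranked 6198 in replicate 3. Bap111, an HMG-domain subunit encoded at chrX:9149309-9151976, had its strongest summit at rank 6279 in the list of both together, rank 9878 in replicate 1 and rank 2790 in replicate 3, downstream of the gene in each.

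Bap55, at chr2R:17429353-17430963, encodes an actin-related protein of the complex. Its optimal peak, at chr2R:17430856-17431231, ranked 2131 with a signal of 68.0, and the summit lay 81 bp upstream of Bap55 and 12 bp from the start of Lhr, within the 5' UTR of Lhr. EDTP and Mtap also lay within 3 kb of it. Replicate 3 ranked this peak 1505 with a signal of 37.5, and replicate 1 ranked it 3630 with a signal of 29.6. Bap55 was thus among the genes with a top peak in replicate 3 and not in replicate 1, the opposite of mor and Bap60.

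Of the signature subunits, osa had the larger number of peaks. The gene, on chr3R:17687818-17718350, is 30533 bp long and encodes the ARID-domain subunit of the BAP form. Its 5 optimal summits had ranks of 12, 364, 839, 1669 and 2507. At least 5 were held by 60 protein-coding genes (0.430%), and 27 (0.194%), osa included, had a summit at rank 12 or stronger. These shares are over genes of all lengths, whose median was 2166 bp, and were not counted among long genes alone. The 4 stronger peaks all lay in intron 4 of each of its 6 transcripts, an intron of 8067 bp, and the weakest lay 189 bp upstream of the start.

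Within intron 4 of osa the peaks spanned chr3R:17700476-17700851, chr3R:17701133-17701508, chr3R:17703335-17703710 and chr3R:17704260-17704575. Their summits were 657, 2202 and 887 bp apart, in order along the plus strand. The strongest had a signal of 463 in replicate 1, at rank 9, and 244 in replicate 3, at rank 17. It lay 13940 bp from the start of osa and in an exon of the noncoding gene lncRNA:CR46035, 715 bp from that gene's start. The peak at rank 364 had a signal of 112 in replicate 1, at rank 310, and 49.5 in replicate 3, at rank 827. Its summit lay 172 bp from the same noncoding start. In replicate 3 a weaker top peak, at rank 2195 with a signal of 31.3, overlapped this peak too. The peak at rank 839 lay 77 bp from the start of lncRNA:CR46036, with ranks of 1142 in replicate 1 and 547 in replicate 3. The peak at rank 1669 lay in an exon of lncRNA:CR46036, with ranks of 1749 in replicate 1 and 2178 in replicate 3. All 4 intronic peaks were thus nearest to the starts of 2 noncoding genes inside osa and were top peaks in both replicates. The start peak of osa, at chr3R:17718351-17718726 and also within 3 kb of Pxt, differed from them: it ranked 2056 in replicate 1 and 7182 in replicate 3, where a weaker peak at rank 10355 overlapped it too.

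Bap170, the ARID-domain subunit of the PBAP form, lies at chr2R:6636512-6642358 and had no summit in the list of both together or in replicate 1. Replicate 3 had 1, at rank 1858 with a signal of 34.1, and its peak overlapped an optimal peak of rank 1665 whose summit lay 3089 bp from the gene, just outside the 3 kb window. That optimal summit lay 349 bp from the start of Fmo-2. The gene lengths also differ, at 30533 bp for osa and 5847 bp for Bap170.

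trx, a histone methyltransferase gene of 23546 bp on chr3R:14263358-14286903, had 2 optimal summits 5886 bp apart. The stronger, at chr3R:14283738-14284113 and 2977 bp from the start, had a signal of 103 in replicate 1, at rank 364, and 86.4 in replicate 3, at rank 232. It lay in the first intron of all 5 transcripts. The weaker, at chr3R:14277852-14278227 with a signal of 110 and rank 895, had ranks of 1345 in replicate 1 and 457 in replicate 3. Both trx peaks had the start of trx as the nearest start, and they were the only 2 of the 11 optimal summits that lay in no other gene's window. Replicate 3 had 6 top summits at trx, replicate 1 had 3, and of the additional ones a pair near the start of the neighbour red ranked 2249 and 2271 in replicate 3.

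ash1, the other histone methyltransferase gene, on chr3L:19590773-19598755, had a single optimal peak, at chr3L:19590456-19590783. The signal was 664 in replicate 1, where it was the strongest of all 30000 peaks, and 283 in replicate 3, at rank 5. Only 7 protein-coding genes (0.0502%), ash1 included, had a summit of this rank or stronger within the same distance. The summit lay 156 bp past the 3' end of ash1 and 8138 bp from its start, and the nearest start, 93 bp away, was that of CG14100. CG9330 also lay within 3 kb. The list of both together had no summit in the body of ash1, and its only other summit there was at rank 11018, downstream.

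**Figure D2:**
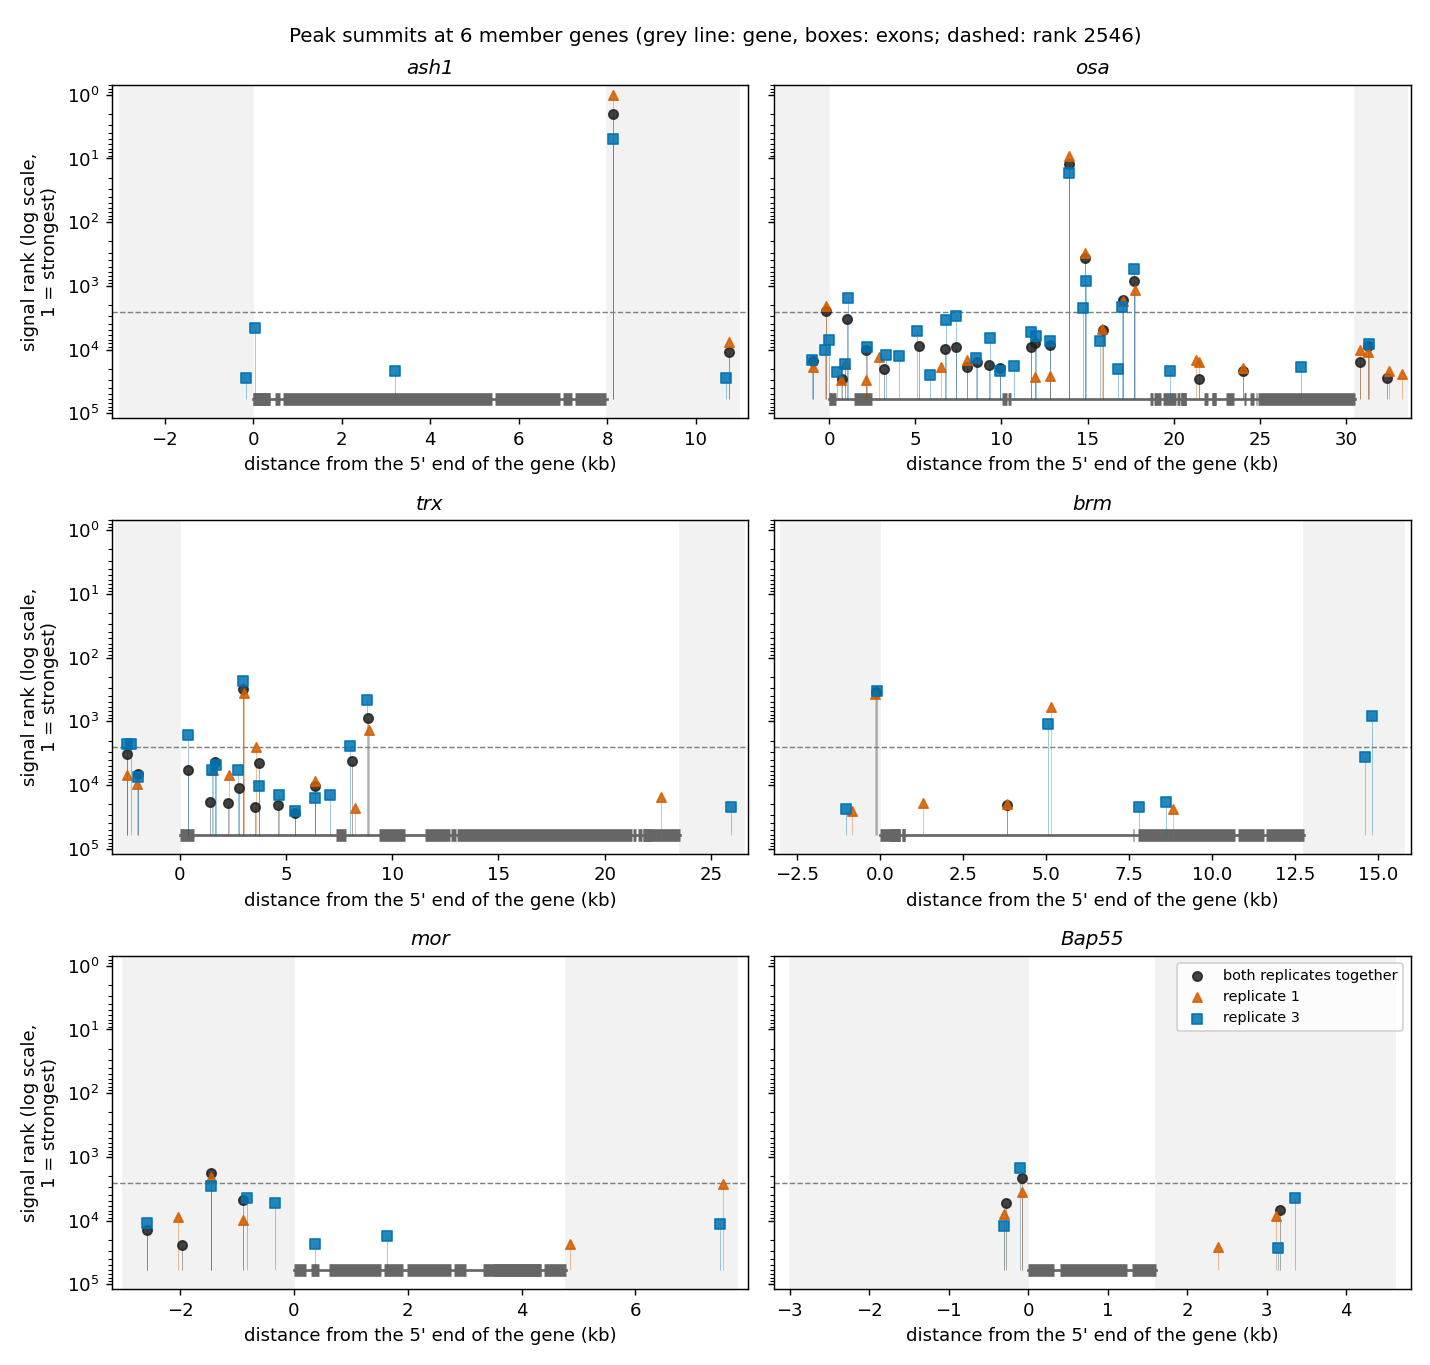
Summits in and around the 6 genes with an optimal peak, by distance from the 5' end of the gene (kb) and signal rank (log axis, rank 1 at the top), with the 3 kb flanks shaded and exons as boxes. The strong summits lie in intron 4 of osa, in introns of trx, just upstream of brm and just past the 3' end of ash1, and the 2 replicates place them at nearly the same positions.

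Over all 11 optimal summits at the members, 6 lay in an intron of the member, 4 upstream and 1 downstream, and 0 in an exon. Only 3 were within 500 bp of a start of the member, at osa, brm and Bap55, so 3 of the 10 members had a summit at their own start, beside 1450 of all protein-coding genes (10.4%). For 7 of the 11 summits the nearest start was that of another gene, for 3 it was the member's own, and for brm it was a tie. In all, 9 of the 11 lay within the window of another gene as well, with noncoding genes included. For the 4 intronic peaks of osa the other genes were noncoding ones only. Over protein-coding genes alone, the 2546 optimal peaks were counted 4815 times. That count does not give the share of peaks in more than 1 window, so it is no background for the 9. In the list of both together the members held 57 summits, of which 41 (71.9%) were at osa and trx, and 33 of the 57 were intronic. Places and nearest starts were not counted over all peaks, so they are not shown to be particular to the members. A summit in that long list was common: 8 of the 10 members had one, beside 77.7% of all protein-coding genes.

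Each of the 11 optimal peaks at the members overlapped a peak of both replicates. The optimal list was made from both replicates, so such overlap was likely for any of its peaks. Among the top peaks, 10 were found in replicate 1 and 9 in replicate 3, with no share over all optimal peaks counted for either. Both at once held for 8 of the 11 (72.7%), beside 1568 of all 2546 optimal peaks (61.6%). The exceptions were the mor peak and the start peak of osa, which fell short in replicate 3, and the Bap55 peak, which fell short in replicate 1. The median shift between the optimal summit and that of the strongest overlapping peak of a replicate was 9 bp in replicate 1 and 22 bp in replicate 3 for the members, against 13 bp and 19 bp over all optimal peaks.

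**Figure D3:**
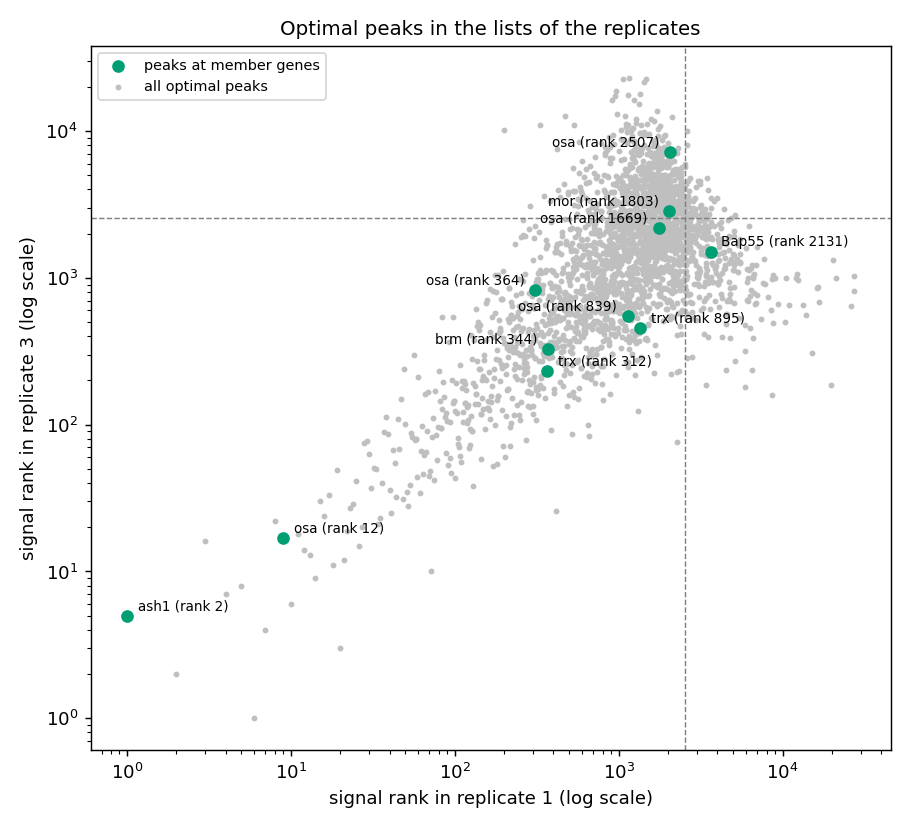
Signal rank of each optimal peak in replicate 3 against its rank in replicate 1 (log axes), with the 11 peaks at the members in green and labelled by gene and rank in the optimal list, and dashed lines at rank 2546. The peaks of ash1 and the strongest osa peak sit at the low corner of both axes, and those of mor, Bap55 and the start of osa lie beyond a dashed line.

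Counted by gene, 6 members had a top summit in replicate 1 (ash1, osa, trx, brm, mor and Bap60), beside 25.4% of all protein-coding genes. Likewise 6 had a top summit in replicate 3 (ash1, osa, trx, brm, Bap55 and Bap170), beside 22.3%. The 4 genes in both were ash1, osa, trx and brm, beside 17.4% of all genes. The 2 replicates thus shared 4 of 6 genes each way, while mor, Bap60, Bap55 and Bap170 changed with the replicate. Snr1 and Bap111 had a top summit in neither.

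A longer gene has a longer window in which a summit can be counted. The median length of the members was 5313.5 bp, against 2166 bp over all protein-coding genes. All 3 members longer than 10 kb (osa, trx and brm) had an optimal summit, beside 41.8% of all genes of that length. Of the 7 shorter members, 3 (ash1, mor and Bap55) had one, beside 21.4%. Per 10 kb of window the members had 0.716 optimal summits, against 0.268 over all genes, and osa alone had 1.37. By this density Bap55, at 1.31, was close to osa, while trx had 0.677 and brm 0.532. The value of Bap55 rests on 1 summit, against 5 at osa. Its window is mostly flank, since the gene is 1611 bp long. With a gene lacking a summit counted as last, the median rank of the strongest summit in the list of both together was 1967 for the members and 8574 over all genes.

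**Figure D4:**
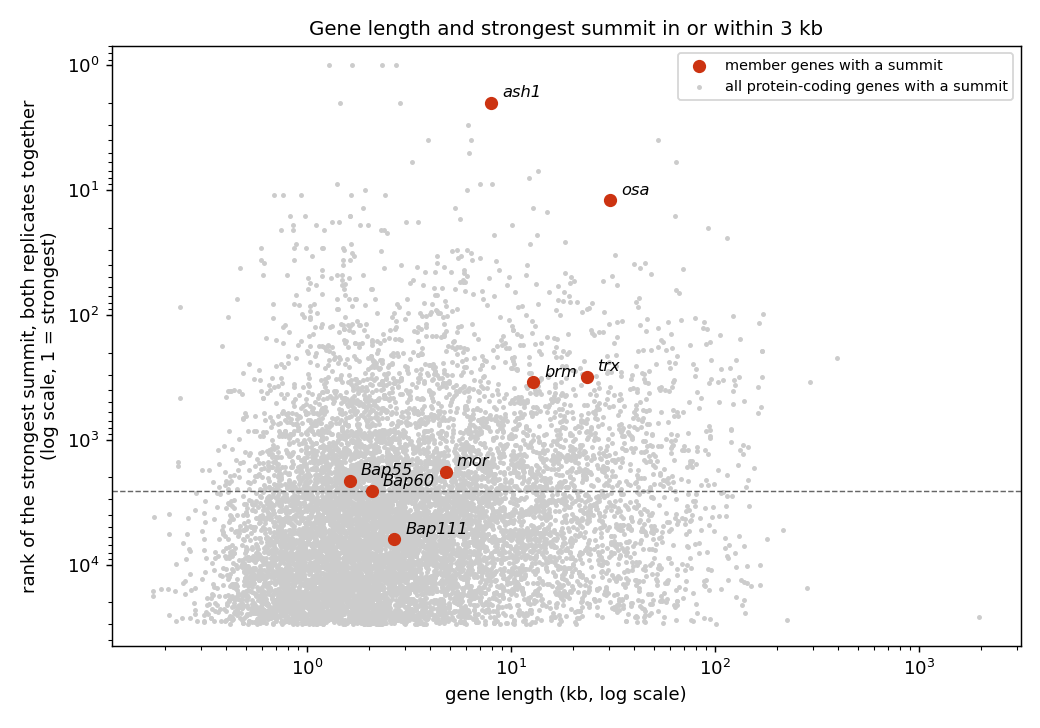
Rank of the strongest summit in the list of both replicates together (log axis, rank 1 at the top) against gene length (kb, log axis) for protein-coding genes with a summit in or within 3 kb, members in red. ash1, at 7983 bp, has a stronger rank than the longer genes osa, trx and brm, and Bap55, Bap60, Bap111 and mor lie at 6279 or better; Snr1 and Bap170 have no summit in this list.

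The sequences under the 11 summits were described by 9 motifs, searched as exact letters on both strands of the summit and 100 bp on either side. GAGAG, the core bound by GAGA factor, was in 3 member windows (27.3%), 1 of osa and both of trx, and in 27.6% of all optimal windows. GCCAT, the core of the Pleiohomeotic site, was in 3 windows, all of osa, and in 24.8% of all. CGATA was in 5 member windows (45.5%) and in 27.7% of all, with 3 matches each at Bap55 and at the start of osa. This core lies inside the DREF site TATCGATA, which was in 0 member windows and in 2.95% of all. GATAA, the core bound by GATA factors, was in 5 member windows and 40.3% of all, and the TATA-box letters TATAAA were in 5 and 32.0%. The letters GGTCACAC were in 0 member windows and 1.22% of all, the E-box CACGTG in 0 and 2.24%, and the AP-1 site TGACTCA in 0 and 2.04%. The GC content of the member windows had a median of 33.3%, from 26.9% to 51.7%, against a median of 35.8% over all optimal windows.

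The same rule was applied to further genes of these pathways, with the 24.3% of all protein-coding genes as background. The background was not matched for gene length. The median length was 5435 bp for the Brahma genes, 8484.5 bp for the Trithorax and COMPASS genes and 4462.5 bp for the other remodelling genes. Over all protein-coding genes it was 2166 bp. Of 8 other genes of the Brahma complex, 4 (50.0%) had an optimal summit, with the strongest peaks at rank 151 for Act5C, which encodes actin, rank 1228 for Bicra and rank 1823 for CG10555. Of 22 other Trithorax group and COMPASS genes, 6 (27.3%) had one, a share near that over all genes, with the strongest at rank 122 for Trl, which encodes GAGA factor, rank 270 for wds and rank 349 for mod(mdg4). Trl had 6 optimal summits in a gene window shorter than that of osa, wds had 2 and mod(mdg4) had 4, so the 5 of osa were not the highest count among these genes. Of 16 other remodelling genes, 6 (37.5%) had one, with the strongest at rank 19 for Caf1-55, rank 53 for Mi-2 and rank 432 for Ino80. These include Hel89B, whose summit is the same as that of mor, and the Caf1-55 summit lay 125 bp from the start of Art3. The strongest summits of Act5C, wds, Mi-2 and Ino80 were also nearest to the start of another gene. That of mod(mdg4) lay 96 bp from the start of pre-mod(mdg4)-AB, which the annotation lists as a gene apart from mod(mdg4). Those of Bicra and CG10555 were nearest to their own start, and that of Trl was equally far from the start of CG42507. The peak of ash1 and the strongest peak of osa ranked above every optimal peak of these 3 lists.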

How the data were processed

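The files used are peak lists of build dm6, 1 for each of the 2 replicates, 1 for both together and the optimal list that the authors kept by the irreproducible discovery rate. Each peak carries a signal value and a −log10 q value as deposited by the authors, and an offset of the summit in base pairs, another deposited value. Which aligner and peak caller were used, and with which thresholds, is not given in the sources used here. The signal was used only to rank and filter peaks within a list, and the q value in no test.

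Summits were assigned to genes of the Ensembl annotation (release 115) in Python 3.11.15 with pandas 2.3.3, and sequence was read from the RefSeq assembly of Release 6. Peaks overlapped when they shared at least 1 bp. The assignment of summits to genes was checked on simulated peaks. No test between groups was possible with 1 group, so counts stand beside the share over all protein-coding genes, and no p-value is given. The members, lists and motifs were chosen with earlier results of these data known. The split at 10 kb was set after gene lengths were seen. Alternatives varied the window, the list length, the overlap and the replicate. The text names all members, the genes nearest to or within 3 kb of their optimal summits, and the 3 genes with the highest optimal signal in each other list.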

Additional observations from a re-analysis of the deposited data

How the results depend on the processing

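With the gene body alone, 2 members (osa and trx) held 6 optimal summits, beside 7.73% of all protein-coding genes with one. With summits within 500 bp of a start alone, 3 members held 3 summits, beside 10.4% of all genes. Windows of 1 kb and 5 kb gave 5 and 8 members, beside 17.0% and 30.7% of all genes. The stronger 50% of the optimal peaks left 7 summits at 4 members, beside 13.95% of all genes. With the top peaks of a single replicate in place of the optimal list, members held 13 to 18 summits, 18 without replicate 1 and 13 without replicate 3, at 6 members each time, beside 22.3% and 25.4% of all genes. The count of members was 6 with the middle of the peak and with RefSeq genes. With 0.5 times as many top peaks, 4 members had one in both replicates, beside 10.1% of all genes. With 2 times as many 6 had one, beside 29.4%. The optimal peaks at members found among the top peaks of both replicates were then 6 and 10. No share over all optimal peaks was counted at these settings, so these peak counts have no background. No paired analysis was possible because the labels give 1 group. Read depth is unknown and limits what a missing peak can show.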

Other observations

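Peaks of a single replicate at the members were chosen for this account after their values were seen. At osa, replicate 3 had a top peak in the first intron, 1118 bp from the start, at rank 1533, against ranks of 3297 in the list of both together and 16609 in replicate 1. At trx, replicate 3 had a top peak in the 5' UTR, 392 bp from a start, at rank 1635, which ranked 5752 in the list of both together and overlapped no peak of replicate 1. At mor, replicate 1 had a summit downstream of the gene at rank 2671, which replicate 3 ranked 11199.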
